A study of Mus musculus with 5 samples.

Results

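Wnt feedback inhibitors and antagonists are the brakes of the Wnt pathway, and 10 of them were followed here by name: Wif1, Notum, Axin2, Nkd1, Rnf43, Apcdd1, Dkk2, Dkk3, Sfrp1 and Sfrp5. Every probe set that the platform annotation gives to 1 of these genes alone was taken, which gave 18 probe sets of the 22626 tested and 10 genes of 12393. The values came from 5 Affymetrix arrays hybridised with RNA of laser-captured intestinal epithelium, from the C57Bl6/J strain and from males aged 8 months in both groups. Arrays called tumour 16, tumour 18 and tumour 2 held intestinal tumours of Apc1638N mice, and arrays called wild type 36 and wild type 62 held normal epithelium of wild-type mice. The Apc1638N allele is a targeted germline mutation of Apc that ends the protein early, so it is present in every cell of the animal and not only in the tumour. The labels give neither the number of animals, nor the gut segment, nor a sample of normal epithelium from Apc1638N mice, so the tumour and the germline allele cannot be told apart in this comparison. Nothing in them ties each array to a separate mouse, and p-values then measure only the spread between these samples, which may be technical.

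Wnt ligands bind Frizzled receptors together with the co-receptors LRP5 and LRP6, which stops the destruction complex built around Axin and APC from degrading beta-catenin. Beta-catenin then joins TCF and LEF factors on DNA and switches on target genes, and in the intestine this signal maintains the stem cells at the crypt base. Some of those targets, such as Axin2, Notum, Nkd1 and Rnf43, encode inhibitors of the pathway itself, which is called negative feedback. Antagonists such as Sfrp1, Sfrp5 and Dkk3 also restrain or modulate Wnt signals but are not established feedback targets. By where they work, the genes fall into those that act on the ligand (Wif1, Notum, Sfrp1, Sfrp5), those at the receptor (Rnf43, Apcdd1, Dkk2), those inside the cell (Axin2, Nkd1), and Dkk3, whose place is less clear. Loss of functional APC acts below the ligands and receptors, at the destruction complex.

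The comparison asked which of these brakes differed between tumour and normal epithelium. With each gene described by its brightest probe set, 5 of the 10 genes rose in tumours, namely Wif1, Notum, Axin2, Nkd1 and Apcdd1, none fell, and Rnf43, Dkk2, Dkk3, Sfrp1 and Sfrp5 did not pass an adjusted p of 0.05 in limma. Over all genes, 20.4% passed by the same rule, 10.5% higher and 9.92% lower. The 10 genes were chosen with earlier results of these data known. Their counts and median beside those of all genes are therefore a description and not an independent test. The median change of the 10 genes was 0.53 on the log2 scale, where the median of all genes was 0.0040. In 8 of the 10 genes every tumour array lay above both wild-type arrays, which held for 27.0% of all genes, and in none did every tumour lie below, which held for 23.7%. In Sfrp1 and Sfrp5 the groups overlapped. Among all 18 probe sets, 6 rose and none fell, where 18.3% of all probe sets passed (9.58% higher and 8.72% lower). Every tumour lay above both wild types for 25.3% of all probe sets. Changes are tumour minus wild type in log2 signal, so that 1 means a doubling. In RNA of a tissue sample, more cells of a type and more RNA per cell cannot be told apart.

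The calls rest on few arrays. Of the 5 genes, 0 passed in limma without wild type 36 and 0 without wild type 62, and without tumour 16, 18 or 2 there were 2, 1 and 1. All 5 stayed higher in tumours in each of these fits. Without wild type 62 limma called none of the 22626 probe sets, with 6682 at an unadjusted p under 0.05, so that no gene named in what follows was called there.

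**Figure D1:**
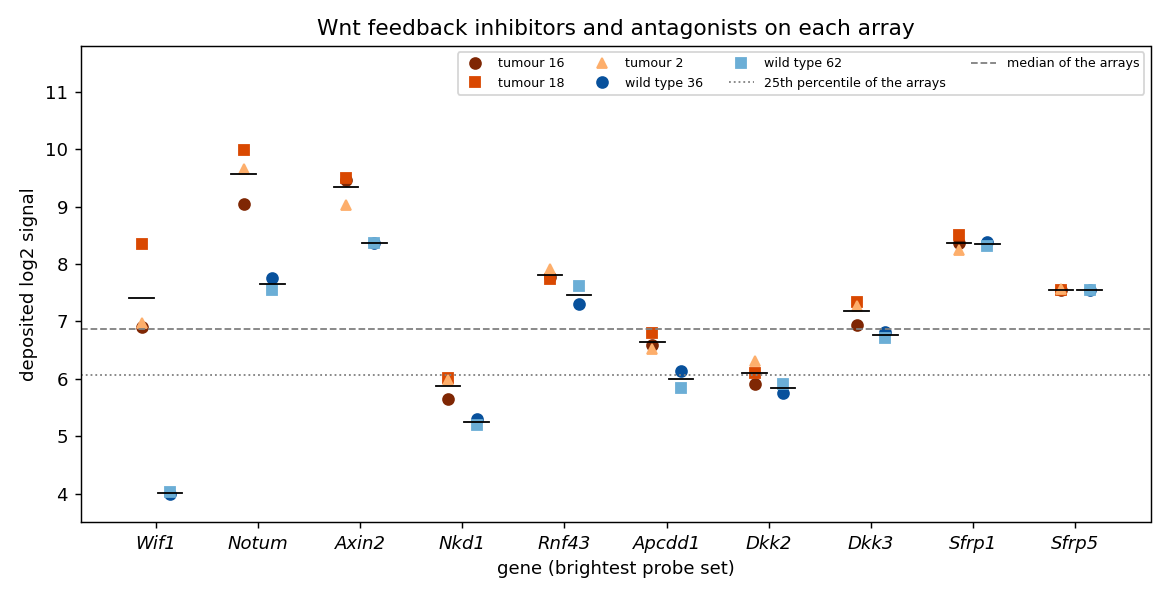
Deposited log2 signal of the brightest probe set of each of the 10 genes on each array, with 3 tumours (orange and brown) and 2 wild types (blue). Short black lines are group means, and grey lines are the highest 25th percentile (6.06, dotted) and the highest median (6.87, dashed) of the arrays. Wif1 lies near 4 on both wild-type arrays and between 6.90 and 8.35 in tumours, whereas Sfrp1 and Sfrp5 overlap between the groups.

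Wif1 encodes a secreted protein that binds Wnt ligands outside the cell. Its signal was 6.90, 8.35 and 6.97 in tumours 16, 18 and 2, and 4.0 and 4.03 in wild types 36 and 62. Tumour 18 stood apart from the other tumours, and both wild-type values lay among the lowest on the array, at a mean percentile of 0.252. The tumour mean of 7.41 ± 0.82 (SD, n = 3) lay above the wild-type mean of 4.02 ± 0.02 (SD, n = 2) by 3.39 (SE 0.52, 95% interval 1.98 to 4.80, adjusted p = 0.0240 in limma). This was the 15th largest rise of the 22626 probe sets. No fold is given, since whether the wild-type values were above background was not tested. The call held without tumour 18 (change 2.92, adjusted p = 0.0164) and was lost without tumour 16 (0.0800), tumour 2 (0.0528), wild type 36 (0.126) or wild type 62 (0.132).

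Notum encodes a secreted enzyme that removes the fatty acid from Wnt ligands and so inactivates them. It measured 9.04, 9.99 and 9.66 in tumours 16, 18 and 2, and 7.76 and 7.55 in wild types 36 and 62. All tumours were above both wild types, with tumour 16 the lowest of them. The wild-type mean of Notum was 7.66 ± 0.15 (SD, n = 2) and the tumour mean 9.56 ± 0.48 (SD, n = 3), so that it rose 3.75-fold (change 1.91, SE 0.31, 95% interval 1.06 to 2.76, adjusted p = 0.0276 in limma). Unlike that of Wif1, its wild-type level lay above the array medians (6.81 to 6.87). The call held without tumour 16 (2.17, adjusted p = 0.0416) and was lost without tumour 18 (0.0733), tumour 2 (0.0802), wild type 36 (0.124) or wild type 62 (0.149).

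Sfrp1 and Sfrp5 encode secreted decoys with a Frizzled-like domain that binds Wnt ligands. The brightest Sfrp1 probe set, 1438620_x_at, has the suffix x, which marks probe sets in which some probes resemble other transcripts. It read 8.37, 8.51 and 8.24 in tumours and 8.39 and 8.32 in wild types, so that the wild types fell inside the tumour range. Its difference was 0.02 (95% interval -0.22 to 0.27, adjusted p = 0.895 in limma), and the sign turned when arrays were centred on their medians (-0.012). The other Sfrp1 probe sets, without that suffix, were dimmer, with tumour means of 6.7, 5.8 and 4.9. They differed by 0.09, 0.08 and -0.13 and did not pass (adjusted p = 0.170, 0.383 and 0.151 in limma). Every tumour lay above both wild types in the first of them and below both in the last. Sfrp5 read 7.54, 7.55 and 7.56 in tumours 16, 18 and 2 and 7.55 on both wild-type arrays, with exactly the same deposited value on tumour 18, wild type 36 and wild type 62. Its difference was 0.0026 (95% interval -0.07 to 0.08, adjusted p = 0.964 in limma). It turned to -0.028 under quantile normalization and -0.031 under median centring. The intervals of Sfrp1 and Sfrp5 do not reach the change seen in Notum, and whether these probe sets follow their transcripts was not tested.

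Apcdd1 encodes a membrane glycoprotein that binds Wnt and LRP5, and its 4 probe sets did not behave alike. The brightest, 1454822_x_at, measured 6.59, 6.79 and 6.52 in tumours 16, 18 and 2 and 6.13 and 5.84 in wild types 36 and 62, with no overlap. It rose by 0.65 (SE 0.13, 95% interval 0.29 to 1.0, adjusted p = 0.0418 in limma). A second, 1449070_x_at, rose by 0.40 (SE 0.07, adjusted p = 0.0334 in limma), from 4.74 and 4.80 in wild types to 5.11, 5.29 and 5.11 in tumours. Tumours 16 and 2 held exactly the same deposited value there, which lowers the spread behind that SE. The suffix x marks probe sets in which some probes resemble other transcripts. The 2 probe sets without that suffix, 1418382_at and 1418383_at, differed by 0.06 and -0.04 (adjusted p = 0.457 and 0.481 in limma) and overlapped between the groups. Their tumour means were 5.07 and 5.19 and their wild-type means 5.01 and 5.23. Like 1449070_x_at, they lay below the 25th percentile of the arrays (6.04 or higher). Whether such dim probe sets follow the transcript was not tested. Averaged over its 4 probe sets, Apcdd1 rose by 0.27 (adjusted p = 0.0206 in limma). Neither x probe set was called without either wild type, and the brightest was called in none of the 5 fits on 4 arrays (adjusted p from 0.0764 to 0.158).

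Rnf43 encodes a membrane ubiquitin ligase that removes Frizzled receptors from the cell surface. It measured 7.77, 7.75 and 7.92 in tumours 16, 18 and 2 and 7.31 and 7.62 in wild types 36 and 62. The tumours stood above both wild types, but the gap between the lowest tumour and wild type 62 was smaller than the gap between the wild types. The difference of 0.35 did not pass (SE 0.12, 95% interval 0.03 to 0.67, adjusted p = 0.127 in limma).

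The Dickkopf genes encode secreted proteins. Dkk2 binds LRP5 and LRP6, whereas Dkk3 is a divergent member of the family. Dkk3 measured 6.94, 7.34 and 7.28 in tumours 16, 18 and 2 and 6.81 and 6.71 in wild types, and its second probe set measured 6.60, 7.11 and 6.70 against 6.32 and 6.41. Both probe sets had every tumour above every wild type, with tumour 18 the highest. They differed by 0.42 (95% interval 0.03 to 0.81, adjusted p = 0.127 in limma) and 0.44 (-0.04 to 0.91, 0.175) and did not pass. Dkk2 measured 5.91, 6.10 and 6.31 in tumours and 5.76 and 5.91 in wild types, so that tumour 16 lay above wild type 62 only beyond 2 decimals. Its difference was 0.28 (95% interval -0.10 to 0.65, adjusted p = 0.262 in limma).

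Axin2 encodes a scaffold protein of the destruction complex and is the textbook feedback target of Wnt signalling. Its brightest probe set, 1436845_at, measured 9.47, 9.50 and 9.04 in tumours 16, 18 and 2 and 8.36 on both wild-type arrays. The groups did not overlap, and tumour 2 lay closest to wild type. Axin2 rose by 0.97 (SE 0.16, 95% interval 0.52 to 1.42, adjusted p = 0.0294 in limma), a 1.96-fold difference. The second probe set, 1421341_at, measured 6.06, 6.30 and 6.31 in tumours and 6.06 and 5.95 in wild types. Tumour 16 lay inside the wild-type range there, and the difference of 0.22 did not pass (95% interval -0.06 to 0.49, adjusted p = 0.234 in limma). The mean of both probe sets rose by 0.59 (adjusted p = 0.0138 in limma). For the brightest probe set the call held without tumour 2 (1.12, adjusted p = 0.0113) and was lost without tumour 16 (0.112), tumour 18 (0.0974), wild type 36 (0.141) or wild type 62 (0.149).

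Nkd1 encodes an intracellular protein that binds Dishevelled, the relay between Frizzled and the destruction complex. It measured 5.65, 6.02 and 5.97 in tumours 16, 18 and 2 and 5.31 and 5.19 in wild types 36 and 62. The groups did not overlap, although all values lay below the 25th percentile of the arrays (6.04 or higher). Nkd1 rose by 0.63 (SE 0.13, 95% interval 0.27 to 1.0, adjusted p = 0.0459 in limma). The call held without tumour 16 (0.75, adjusted p = 0.0432) and was lost without tumour 18 (0.132), tumour 2 (0.117), wild type 36 (0.153) or wild type 62 (0.202).

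**Figure D2:**
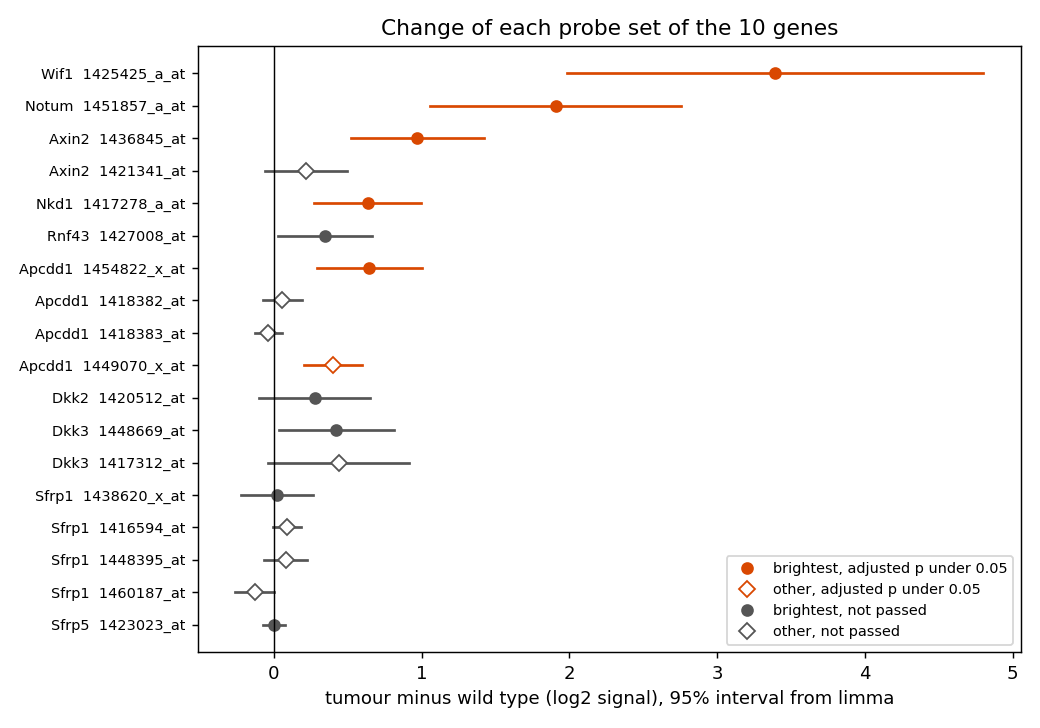
Change of each of the 18 probe sets, tumour minus wild type in log2 signal, with 95% intervals from limma. Filled circles are the brightest probe set of a gene, open diamonds its other probe sets, and orange marks an adjusted p under 0.05. Wif1 (3.39) and Notum (1.91) lie furthest to the right, and the probe sets of Axin2 and of Apcdd1 are split between orange and grey.

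The tumours differed among themselves in how far these genes lay from the wild-type mean. Of the brightest probe sets, tumour 18 was the highest tumour for 7 of 10 genes and tumour 2 for 3, while tumour 16 was the lowest tumour for 6. Above the wild-type mean, Wif1 stood 2.88, 4.33 and 2.95 higher in tumours 16, 18 and 2, and Notum 1.38, 2.33 and 2.01 higher. Axin2 showed another order, with 1.10, 1.13 and 0.67. Wif1 and Notum were thus furthest from wild type in tumour 18, and Axin2 was nearest to it in tumour 2. The labels give no stage or size of the tumours.

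Promoter sequences are shown for 3 of the 5 genes that rose, because they let the start-site regions of genes that moved together be read side by side. RefSeq windows of build GRCm38.p6, from 250 bases before to 50 bases after a start site, were kept for 6 of the 10 genes (7 windows, since Rnf43 has 2). Windows of the 10 genes on 1 chromosome were left out beforehand. A gene on that chromosome may therefore still have one. Notum and Apcdd1 are among the genes without a window here, and the reason was not examined for each gene. The windows lie on the + strand at chr10:121033754-121034053 (Wif1), chr11:108920099-108920398 (Axin2) and chr8:88527383-88527682 (Nkd1), and are written 5′ to 3′ with CG dinucleotides, the sites of DNA methylation in mammals, in capitals.
Wif1: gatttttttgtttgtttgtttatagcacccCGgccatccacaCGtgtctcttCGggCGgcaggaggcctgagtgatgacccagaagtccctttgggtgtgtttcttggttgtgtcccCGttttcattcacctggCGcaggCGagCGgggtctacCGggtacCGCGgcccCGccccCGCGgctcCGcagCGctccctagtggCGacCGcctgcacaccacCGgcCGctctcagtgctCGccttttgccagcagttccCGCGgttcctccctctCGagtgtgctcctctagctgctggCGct
Axin2: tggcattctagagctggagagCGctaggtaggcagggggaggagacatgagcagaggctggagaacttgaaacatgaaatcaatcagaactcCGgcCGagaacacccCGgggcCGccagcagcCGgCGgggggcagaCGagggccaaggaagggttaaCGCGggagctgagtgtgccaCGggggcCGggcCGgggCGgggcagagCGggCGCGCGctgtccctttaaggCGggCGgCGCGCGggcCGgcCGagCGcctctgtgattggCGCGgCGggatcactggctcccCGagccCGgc
Nkd1: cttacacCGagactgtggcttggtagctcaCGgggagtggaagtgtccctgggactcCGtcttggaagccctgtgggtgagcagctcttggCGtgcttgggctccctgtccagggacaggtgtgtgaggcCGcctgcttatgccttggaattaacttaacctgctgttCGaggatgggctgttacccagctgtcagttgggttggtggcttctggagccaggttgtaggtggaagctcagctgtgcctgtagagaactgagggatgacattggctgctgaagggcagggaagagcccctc
The Axin2 window held 31 CG dinucleotides and the Wif1 window 25, where 90.5% and 83.1% of all 32851 windows held at most as many. Nkd1 held 6, near the median of 7. The windows of genes that did not pass held 10 and 3 (Rnf43), 11 (Dkk2) and 15 (Sfrp5). A search of both strands for the TCF and LEF motif, spelled CTTTG followed by AA, AT, TA or TT, found 0 matches in the 7 windows, and 16.9% of all windows held at least 1. That says only that these letters are not in these windows. DNA methylation and factor binding were not measured in these samples.

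The other genes of the pathway were counted from lists of other antagonists, further inhibitors, ligands, receptors, nuclear effectors and targets. By the same rule 10.5% of all genes rose and 9.92% fell. Among 14 other measured antagonists at the ligand or receptor 1 rose, 0 fell and 13 did not pass, with a median change of 0.01. The gene that rose was Igfbp4, an insulin-like growth factor binding protein that also antagonises Wnt. Its brightest probe set measured 11.15, 11.23 and 11.07 in tumours and 9.85 on both wild-type arrays, a rise of 1.30 (SE 0.06, adjusted p = 0.00485 in limma). The group also holds Dkk1, Dkk4, Sfrp2, Sfrp4, Frzb and Sost, and none of these passed. The Igfbp4 call held in 4 of the 5 fits that left out 1 array and was lost without wild type 62 (0.0595).

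Of 18 measured further inhibitors inside the cell or in its membrane, 1 rose and 2 fell, with a median change of -0.01. Tle4, a corepressor that binds TCF factors, measured 7.12, 7.20 and 7.46 in tumours 16, 18 and 2 and 8.55 and 8.62 in wild types, with no overlap. It fell by 1.33 (SE 0.12, adjusted p = 0.00927 in limma), or by 0.73 as the mean of its probe sets. Apc fell by 0.50 (adjusted p = 0.020), or by 0.25 as the mean of its probe sets, and Gsk3b, the kinase of the destruction complex, rose by 0.47 (adjusted p = 0.0325). Apc is the gene mutated in the tumour mice, and how its probe sets read the mutated allele was not tested. The Tle4 call was lost without wild type 36 (0.0674) or 62 (0.0817), that of Apc without any array other than wild type 36 (0.0558 to 0.0824), and that of Gsk3b without any single array (0.0785 to 0.131).

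Most genes of ligands and receptors, on which the secreted brakes act, did not pass, and most of all genes did not either (20.4% passed). Of 21 ligand and secretion genes 1 rose and 1 fell, and the median change was -0.03. Wnt4 measured 6.30, 6.34 and 6.21 in tumours and 7.29 and 7.07 in wild types, a fall of 0.90 (SE 0.09, adjusted p = 0.0104 in limma). Porcn, the enzyme that attaches the fatty acid that Notum removes, rose by 0.49 (SE 0.10, adjusted p = 0.0426). Of 18 receptor and R-spondin genes 4 rose and 1 fell, with a median of 0.02. Fzd2 rose by 1.08 (SE 0.11, adjusted p = 0.0122), Fzd6 by 0.91 (SE 0.11, adjusted p = 0.0150, and 0.49 as the mean of its probe sets) and Ror2 by 0.78 (SE 0.15, adjusted p = 0.0372). Rspo2, an R-spondin that stabilises Frizzled receptors, fell by 0.17 (adjusted p = 0.0473), and not past the threshold when dim or tied probe sets were left out (0.0541 and 0.0709). The calls of Porcn, Ror2 and Rspo2 were lost without any single array, those of Wnt4 and Fzd6 without tumour 16 (0.0601 and 0.0710) or either wild type (0.0533 to 0.0933), and that of Fzd2 without either wild type (0.0822 and 0.0903).

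Nuclear effectors and targets differed in their counts. The effector list also holds the Dishevelled genes Dvl1, Dvl2 and Dvl3, whose proteins relay between Frizzled and the destruction complex. Of 10 effectors 1 rose, the beta-catenin coactivator Bcl9 (0.37, adjusted p = 0.0301 in limma, lost without any single array), and the median change was 0.11. Over all genes, 10.5% rose, and 27.0% had every tumour above both wild types. Of 22 measured other Wnt target genes 9 rose and 0 fell, with a median of 0.69, and 17 had every tumour above both wild types. Among them were Mmp7 (3.71, SE 0.31), the hyaluronan receptor Cd44 (3.69, SE 0.16, and 2.26 as the mean of its probe sets) and the transcription factor Sox4 (2.30, SE 0.13), with adjusted p from 0.00485 to 0.00828. Their calls held without any 1 tumour. They were lost without wild type 62 for all of these (0.0595 to 0.0740) and without wild type 36 for Mmp7 and Sox4 (0.0672 and 0.0526). The share of these targets that rose was 9 of 22, beside 5 of 10 for the feedback inhibitors and antagonists, and the difference between the lists was not tested. Both lists were chosen with earlier results of these data known.

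**Figure D3:**
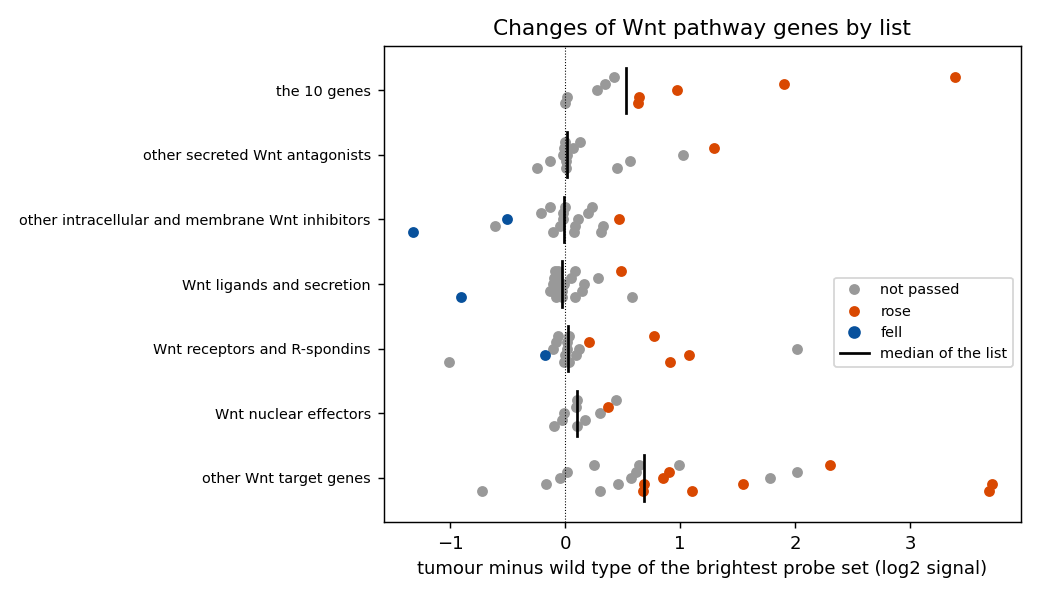
Change of the brightest probe set of each gene in 7 lists of Wnt pathway genes, tumour minus wild type in log2 signal. Each point is 1 gene, coloured by its call in limma at an adjusted p of 0.05, and black lines are list medians. The medians of the 10 genes (0.53) and of the other targets (0.69) lie to the right of the other lists, whose medians run from -0.03 to 0.11.

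Several of these genes are also made by cells other than the epithelium, so marker lists of other cell types were set beside them. For the marker counts that follow, the shares over all genes were 10.5% higher and 9.92% lower in tumours. Epithelial markers were high in both groups, with a list mean between 11.10 and 11.50 in tumours and 11.18 and 11.28 in wild types. Of these 10 genes the keratin genes Krt18 (2.44) and Krt19 (1.20) rose and the brush border gene Vil1 fell by 1.26. Fibroblast and matrix markers averaged 8.44, 9.17 and 7.81 in tumours 16, 18 and 2 and 7.56 and 7.13 in wild types. Of these 14 markers 10 had every tumour above both wild types, which held for 27.0% of all genes. Only Dcn, a matrix proteoglycan, rose in the test (2.60, adjusted p = 0.0418 in limma), and Fbln1 fell by 0.96. The Dcn call held without tumour 2 and was lost without any other array (0.0876 to 0.194). Tumour 18 had the highest fibroblast level of the tumours and the highest Wif1, Notum, Axin2, Nkd1, Apcdd1, Dkk3 and Sfrp1. That order was not particular to fibroblast markers. Tumour 18 was also the highest tumour for smooth muscle, endothelial, T and B cell, macrophage, absorptive enterocyte, Paneth and enteroendocrine markers. For epithelial markers and for glia and nerve markers it was the lowest tumour, and for goblet cell markers tumour 2 was the highest. Tumour 2 had the lowest fibroblast level of the tumours, still above both wild types, and there Wif1 read 6.97 and Notum 9.66. The part of these cells in the changes of Wif1, Notum and the other genes was not tested.

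Paneth cell markers, which belong to the crypt base, averaged 10.34 to 11.02 in tumours and 8.52 to 8.84 in wild types, and 3 of 5 rose. These were Mmp7, the lysozyme gene Lyz1 (1.13) and Nupr1 (1.08). Absorptive enterocyte markers of the villus went the other way, with 7.64 to 9.05 in tumours and 12.01 to 12.26 in wild types. Of these 9 genes 6 fell, among them Slc2a2 (-5.41), Enpep (-5.41) and Lct (-4.41). How much crypt and how much villus was captured is not given by the labels, and its part in the rise of the Wnt inhibitors was not tested.

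T and B cell markers averaged 6.76 to 6.98 in tumours and 7.98 to 8.03 in wild types, with 4 of 10 lower, among them Ccl5 (-3.40), Jchain (-2.99) and Gzma (-2.84). Enteroendocrine markers had 3 of 8 lower, namely Sst (-0.97), Cck (-0.87) and Sct (-0.65). Goblet cell markers had Spink4 higher (1.67) and Fcgbp lower (-1.25) of 6, smooth muscle markers Acta2 higher (1.22, or 0.61 as the mean of its probe sets) and Mylk lower (-1.68, or -0.94) of 8, and macrophage markers Cd14 higher (0.94) of 8. Of 8 endothelial and 6 glia and nerve markers none passed in limma. The brightest of these, Kdr, Plvap, Sox10 and Gfap, differed by -0.00057, 0.04, 0.02 and -0.01, with signs that turned in other settings. Of the marker genes named here as higher or lower, all but Krt18 and Gzma also lost their call without wild type 36. Krt18, Mmp7, Ccl5, Slc2a2 and Nupr1 kept it whichever tumour was left out, and the others lost it without at least 1 tumour.

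**Figure D4:**
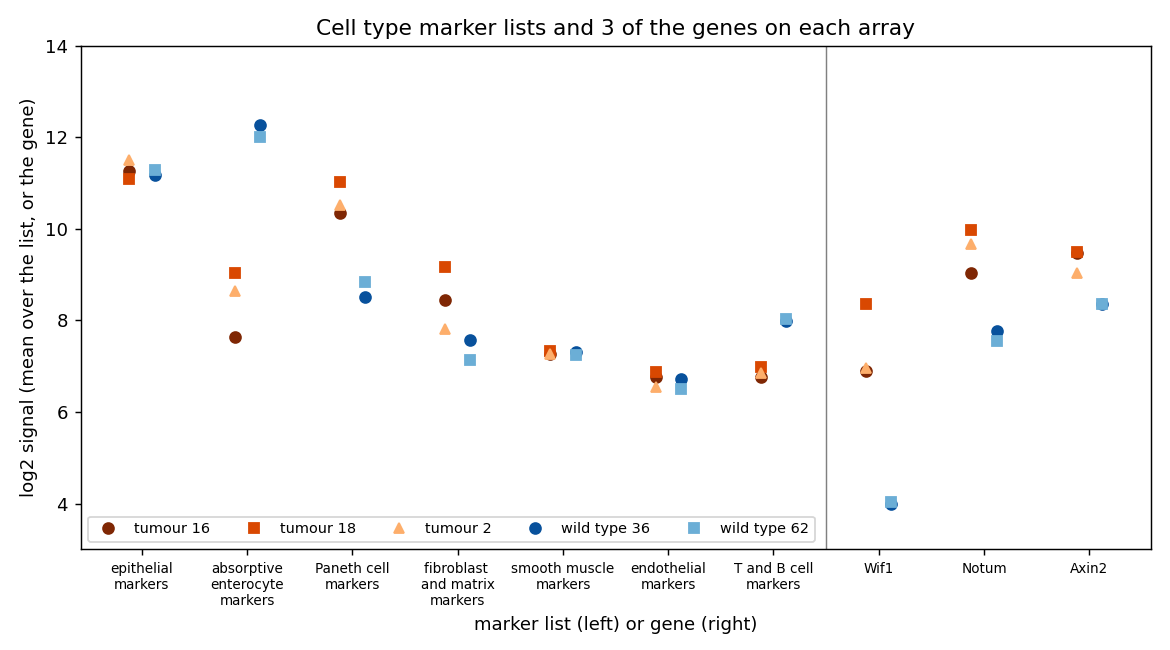
Mean log2 signal of 7 cell type marker lists on each array (left of the grey line) and the signal of Wif1, Notum and Axin2 (right), for 3 tumours and 2 wild types. The epithelial means overlap between the groups (11.10 to 11.50 in tumours, 11.18 and 11.28 in wild types), and the fibroblast mean is higher on each tumour array (7.81 to 9.17) than on either wild-type array (7.13 and 7.56).

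The arrays also differed in a control signal used as a sign of RNA quality, which was not itself measured. The signal at the 3′ end of beta-actin exceeded that at the 5′ end by 4.0 to 4.25 in tumours and by 2.51 to 3.32 in wild types, a gap between the groups of 1.24 in log2 signal. The tumour RNA thus gave the lower 5′ signal relative to the 3′ end. Its part in the difference between probe sets of Axin2 or of Apcdd1 was not tested, and the positions of the probes were not analysed here. Because 5 arrays split 3 against 2 in only 10 ways, an exact two-sided permutation test of 1 gene cannot go below p = 0.1. The calls rest on the limma model. It joins each probe set's own spread (3 degrees of freedom) to a spread shared over all probe sets (1.19).

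**Figure D5:**
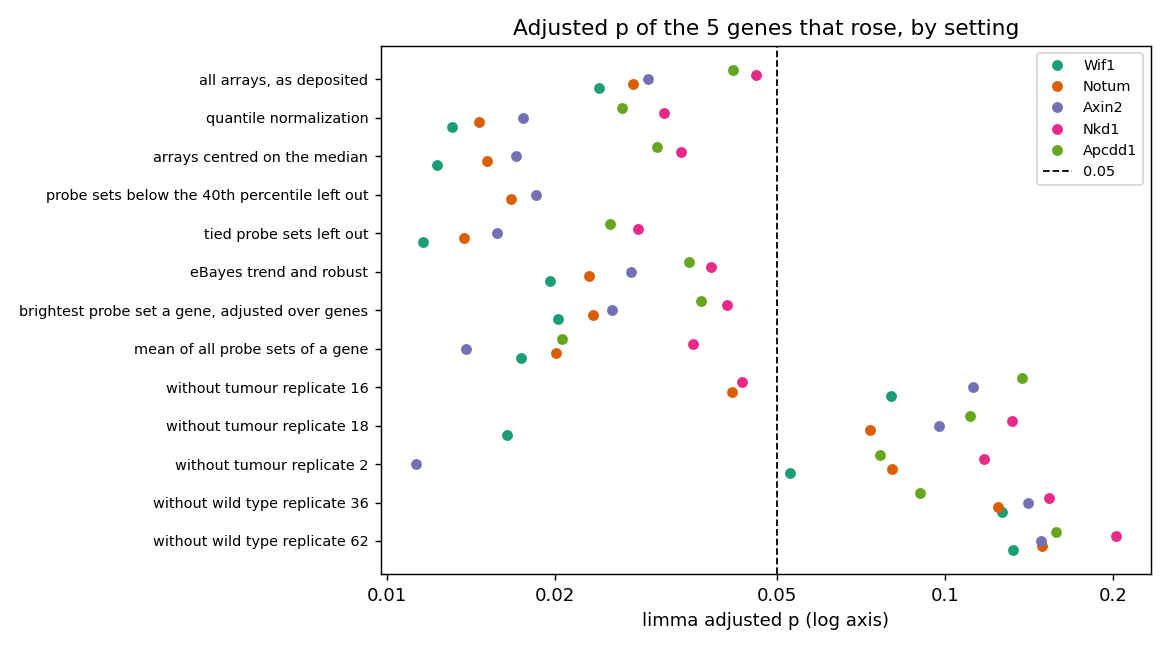
Limma adjusted p (log axis) of the brightest probe set of Wif1, Notum, Axin2, Nkd1 and Apcdd1 with all arrays, under 7 other settings and without each array. The dashed line is 0.05, and a missing point means that the probe set was left out by the filter. Points cross the line only where an array was left out, and with wild type 36 or 62 left out all 5 genes lie to its right.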

How the data were processed

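A table of log2 values for 22690 probe sets, deposited by the authors, was used. That the scale is log2 was inferred from its range, 3.38 to 14.3. The submitters' processing notes name affy. The summary method, background correction and normalization are not given in the sources used here. Control probe sets (64) were set aside. GEO's platform annotation gave 20380 probe sets 1 symbol, 691 several and 1555 none.

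Tumours (n = 3) were compared with wild types (n = 2) in limma 3.58.1 under R 4.3.3, with group as the only term, a two-sided moderated test and Benjamini-Hochberg adjustment over all 22626 probe sets at 0.05. Residual degrees of freedom were 3 and prior ones 1.19, and precision is limited by the small number of arrays. A gene was described by its brightest probe set, the one with the highest mean over the arrays. The fit was also tested on simulated data with known changes. In 2594 probe sets all arrays of a group shared a value, among them 1 of the 10 genes' probe sets (Sfrp5).

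Members and lists were chosen with earlier results of these data known. Named genes were the 10 members and, in each other list, up to 3 called genes per direction with the largest change, or the 2 brightest where none was called. Other settings were quantile normalization, median centring, removal of dim or of tied probe sets, trended and robust eBayes, 2 summaries per gene, and leaving out each array.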

Additional observations from a re-analysis of the deposited data

How the results depend on the processing

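Of the 10 genes, 5 were called higher and 0 lower under quantile normalization, median centring, removal of tied probe sets, trended and robust eBayes, and both summaries per gene. Removal of probe sets under the 40th percentile left 2 higher, because Wif1, Nkd1, Apcdd1 and Dkk2 were not tested there. Fits on 4 arrays gave 0 to 2 higher genes. An alternative added after the data were seen, 4 arrays with tied probe sets removed, gave 4, 2, 4, 0 and 0 without tumours 16, 18 and 2 and wild types 36 and 62. Over all probe sets 4139 were called (2167 higher and 1972 lower), and the fits on 4 arrays gave 0 to 3424 (0 to 1875 higher, 0 to 1549 lower). The 0 without wild type 62 came with 6682 at an unadjusted p under 0.05 in limma. With ties removed as well, 2288 were called without tumour 16 (1202 higher, 1086 lower), 2697 without tumour 18 (1417 and 1280), 4790 without tumour 2, 2435 without wild type 36 (989 higher) and 1703 without wild type 62 (846 and 857). The fit on 1 probe set a gene called 2695 (1395 and 1300), with fewer features tested. A lone wild-type array was assumed to vary like the tumours.

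Signs turned for genes that had not passed. Sfrp1 went to -0.012 under median centring, -0.045 without tumour 18 and -0.015 without wild type 62 (0.086 at most on 4 arrays). Sfrp5 went to -0.028 under quantile normalization, -0.031 under median centring and -0.0022 without tumour 2 (0.0061 at most). Kdr ran from -0.057 to 0.075 on 4 arrays, with 0.025 without wild type 36, and was 0.0048 under quantile normalization. Plvap ran from -0.25 to 0.32, with -0.18 without tumour 18. Sox10 went to -0.0086 under quantile normalization and -0.0097 under median centring, and Gfap ran from -0.018 to 0.00017. The causes were not tested. No paired analysis was possible because the groups share no replicate numbers.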

Other observations

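Some values outside the naming rule were noticed after they were seen. Igfbp4 had 6 probe sets, of which 5 rose, with changes from 0.25 to 3.80 on the log2 scale, and 1 differed by -0.01 (adjusted p = 0.941 in limma). The largest of these rises, 3.80 and 3.70, were larger than that of the brightest probe set (1.30) and that of Wif1 (3.39). Shisa2, which holds Frizzled receptors inside the cell, rose by 1.47 in its dimmer probe set (adjusted p = 0.0451 in limma) and differed by 1.03 in its brightest probe set (adjusted p = 0.0698). Lgr5, the R-spondin receptor of intestinal stem cells, measured 8.67, 10.01 and 8.90 in tumours 16, 18 and 2 and 7.18 and 7.17 in wild types, a difference of 2.02 that missed the threshold (adjusted p = 0.0532 in limma). As for Wif1, tumour 18 was the highest for Lgr5.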
